A study of Mus musculus with 12 samples.

Results

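Astrocytes were described here through 35 genes measured in mouse hippocampus, 18 that mark astrocyte identity and 17 that rise when astrocytes become reactive. The genes were taken by symbol from the table of total RNA, which lists 24736 gene symbols, and all 35 were found there and passed the filter on low counts that left 18060 genes for testing. The transgenic group was 3 male APP/PS1 mice carrying the APPswe and PSEN1dE9 transgenes, and the control group was 3 male wild-type (WT) littermates, all 4 months old and with no treatment named. The sources used here do not give the promoter of the transgenes or the strain background. In the widely used mouse line of that name the prion protein promoter drives both transgenes, so that neurons are not the only cells that may express them. Each library holds RNA of hippocampus as a whole, so fewer astrocytes and less of a transcript per astrocyte cannot be told apart.

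Astrocytes take up glutamate released at synapses, turn it into glutamine, buffer potassium and water around blood vessels, and are joined to each other by gap junctions. Injury, inflammation and amyloid deposits make them reactive: intermediate filaments such as GFAP and vimentin increase, and secreted inhibitors, acute phase proteins and cytokine receptors are induced, in large part through the transcription factor STAT3. Reactive astrocytes around plaques are a well known feature of the older APP/PS1 brain, and the comparison here asks how far such transcripts differ at 4 months.

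The 6 libraries held 120958765 to 146904552 estimated counts. Levels are given as CPM, the estimated counts in a library scaled by TMM to a total of 1000000, and 3 values are always in the order of WT replicates 1, 2 and 4 or APP/PS1 replicates 1, 2 and 3. App, the gene of the amyloid precursor protein and part of the transgene, was at 1580.4, 1522 and 1548 CPM in WT and at 3170.1, 3465 and 2948 CPM in APP/PS1, which fits the labels of all 6. APP/PS1 replicate 3 stood apart. Its 15 cerebellar and Bergmann glia genes summed to 6971 CPM against 1011 to 1155 CPM in the other 5 libraries, and Gdf10, a marker of Bergmann glia, the astrocytes of the cerebellar cortex, was at 11.8, 8.59 and 11.2 CPM in WT and at 10.2, 8.23 and 54.1 CPM in APP/PS1. Cbln3, of the same list, was at 0.872, 0.528 and 0.625 CPM in WT and at 0.312, 0.422 and 612 CPM in APP/PS1. Both genes are named as checks of the libraries. The list of 17 hippocampal genes had its lowest level there, at -0.70 log2 units from the median library, with Prox1 of dentate granule cells at 145, 129.6 and 139.5 CPM in WT and at 142, 131 and 111 CPM in APP/PS1. Counts and fold changes of the astrocyte genes are therefore given without that library too, and the part of cerebellar RNA in them was not tested.

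A few of the genes to which the results return are shown first by the 300 bases around their start sites. The sequences are RefSeq's, build GRCm38.p6, from 250 bases before to 50 bases after the annotated start, and were available for 30 of the 35 genes. Capitals mark the STAT motif TTC-NNN-GAA, written here with hyphens between its parts, which reads the same on both strands and is the core bound by STAT3. Gfap and Slc1a3 are identity genes that hold it, and Steap4 is the reactive gene with the highest fold change in the 6 libraries. Serpina3n had the highest correlation with Gfap among the 35 genes over the 6 libraries, a relation that did not pass after adjustment. The windows are Gfap chr11:102897151-102897450 on the minus strand, Slc1a3 chr15:8710758-8711057 on the minus strand, Steap4 chr5:7960222-7960521 on the plus strand and Serpina3n chr12:104406458-104406757 on the plus strand.
Gfap: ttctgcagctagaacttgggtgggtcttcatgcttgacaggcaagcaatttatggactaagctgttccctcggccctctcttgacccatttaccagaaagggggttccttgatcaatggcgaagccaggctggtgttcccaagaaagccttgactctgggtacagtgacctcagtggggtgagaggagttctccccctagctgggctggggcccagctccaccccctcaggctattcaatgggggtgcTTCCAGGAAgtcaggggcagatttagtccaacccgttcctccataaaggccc
Slc1a3: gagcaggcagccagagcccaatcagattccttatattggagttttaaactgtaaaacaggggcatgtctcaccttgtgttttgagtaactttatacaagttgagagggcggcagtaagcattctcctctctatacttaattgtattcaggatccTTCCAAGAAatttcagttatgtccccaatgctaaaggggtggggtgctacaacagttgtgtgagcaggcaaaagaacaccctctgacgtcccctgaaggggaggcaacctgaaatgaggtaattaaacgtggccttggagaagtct
Steap4: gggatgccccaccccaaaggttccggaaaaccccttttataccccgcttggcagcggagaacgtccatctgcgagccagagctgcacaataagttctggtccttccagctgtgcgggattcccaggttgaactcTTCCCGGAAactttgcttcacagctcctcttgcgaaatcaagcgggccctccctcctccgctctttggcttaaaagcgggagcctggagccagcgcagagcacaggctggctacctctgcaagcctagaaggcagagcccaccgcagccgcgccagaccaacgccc
Serpina3n: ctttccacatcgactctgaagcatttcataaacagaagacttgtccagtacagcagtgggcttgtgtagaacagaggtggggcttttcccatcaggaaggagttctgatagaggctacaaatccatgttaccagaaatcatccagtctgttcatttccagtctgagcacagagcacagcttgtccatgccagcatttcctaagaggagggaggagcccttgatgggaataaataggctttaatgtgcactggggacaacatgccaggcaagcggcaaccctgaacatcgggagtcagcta

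The motif occurred in the start regions of 3 of 15 identity genes with a sequence (Gfap, Slc1a3 and Aldoc) and of 3 of 15 reactive genes (Steap4, Tgm1 and Emp1). Among all 27025 genes with such a window, 9.55% held it, and among all 32851 windows 8.30%. With 2 to 4 bases allowed between the TTC and GAA parts, a pattern that contains the first, 5 of 15 genes matched in each group against 24.2% of all genes. The SOX core ACAAAG, searched on both strands, occurred in 2 of 15 identity genes (Hepacam and Slco1c1) and 3 of 15 reactive genes (Timp1, Cp and Stat3), against 21.0% of all genes. Serpina3n held neither motif in this window. A match of letters is given as a description of the sequence only.

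No astrocyte gene of the 35 passed the test between genotypes. With edgeR's quasi-likelihood test and Benjamini-Hochberg adjustment over all 18060 genes, adjusted p ran from 0.887 to 0.998 over the 35, while 1 gene of the whole table passed (0.00554%). DESeq2 and limma-voom also called 0 of the 35. App, with a log2 fold change of 1.04 (SE 0.091), did not pass edgeR's test in the 6 libraries either (adjusted p 0.117). Without APP/PS1 replicate 3 App passed that test, with an adjusted p of 0.0136. A gene that did not pass is therefore not shown to be unchanged. At an unadjusted p under 0.05 edgeR took 3 of the 35, Steap4 higher and Glul and Hepacam lower, against 3.42% of all genes tested (1.9% higher and 1.52% lower). The 2 genotypes did not overlap for 4 of the 35 (11.4%), Steap4 and Timp1 higher and Glul and Hepacam lower, close to the 10.4% of all genes tested. The 18 identity genes had a median log2 fold change, APP/PS1 over WT, of -0.089 with 8 positive and 10 negative. The 17 reactive genes had a median of -0.0022 with 8 positive and 9 negative, and all genes tested had 0.011 with 52.3% positive and 47.7% negative.

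Leaving out APP/PS1 replicate 3 changed the picture of the identity genes more than that of the reactive genes. Without it 17 of 18 identity genes were negative, and their median log2 fold change was -0.15, against 50.3% negative among the 18302 genes tested in those 5 libraries. The one positive was Slco1c1, a thyroid hormone transporter. Of the 35 genes, 0 passed edgeR's test in the 5 libraries (adjusted p 0.995 for each), while 5 of all genes passed (0.0273%). At an unadjusted p under 0.05 there were 5 lower identity genes, S100b, Glul, Slc4a4, Atp1b2 and Hepacam, and 2 higher genes, Slco1c1 and Steap4. Among all genes 4.03% had such a p, 2.15% with a lower level. Lists of other cell types were read in both fits. All 16 oligodendrocyte and myelin genes were negative with that library (median -0.25) and without it (median -0.20). Negative endothelial and mural genes went from 13 to 16 of 20 when it was left out (median -0.016, then -0.11). Negative neuronal genes went from 11 to 14 of 16, while their median went from -0.12 to -0.044. All 15 choroid plexus genes were positive in both fits (median 0.70 with that library and 0.77 without it). Without that library most genes were also negative in the lists of fibroblasts (11 of 14), neutrophils and blood (10 of 11) and cerebellum (11 of 14). Most were positive for microglia (10 of 18, median 0.017) and plaque-associated microglia (8 of 12, median 0.060). The same held for ependymal genes (9 of 12, median 0.16) and hippocampal genes (10 of 17, median 0.048). Some other lists thus shared the negative sign and some did not, and the part of tissue make-up in it was not tested. Among the reactive genes 10 were then positive and 7 negative, with a median of 0.046.

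**Figure D1:**
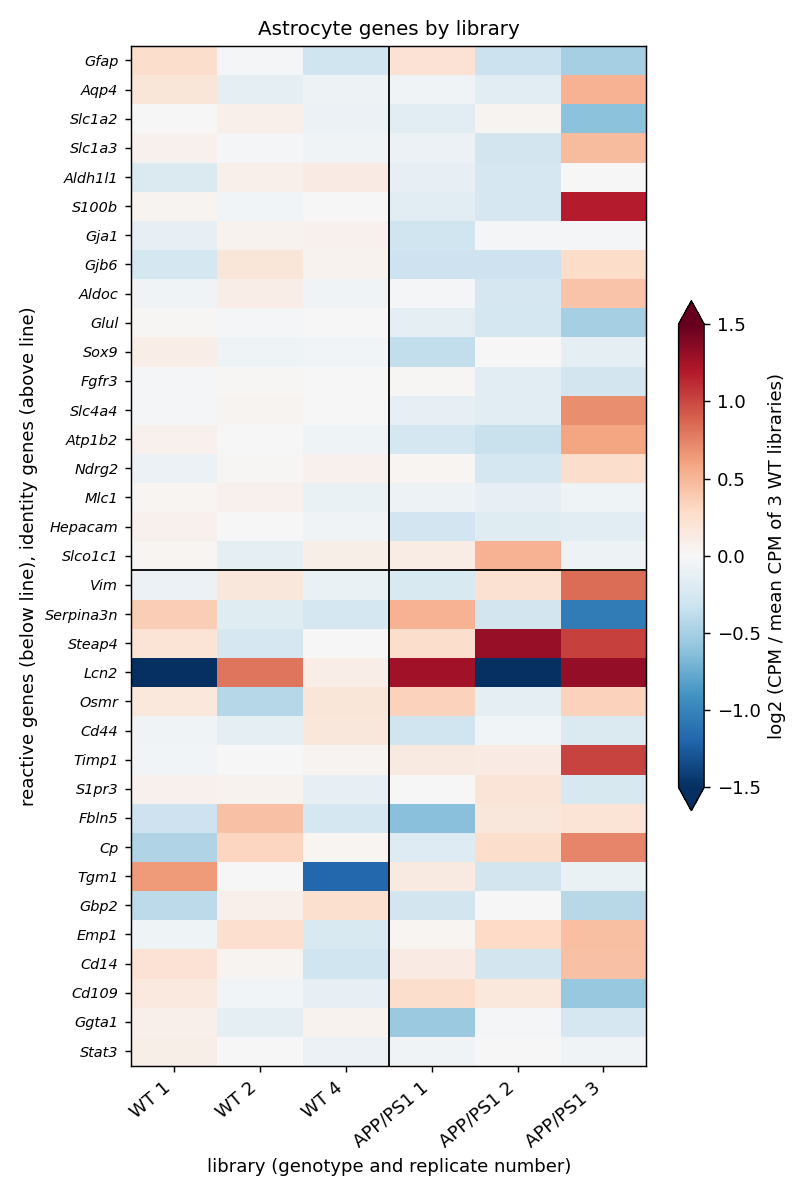
Heat map of the 35 astrocyte genes (vertical axis, identity genes above the line and reactive genes below) in the 6 libraries (horizontal axis), coloured by the log2 ratio of CPM to the mean CPM of the 3 WT libraries, with colours ending at 1.5 in either direction. APP/PS1 replicate 3 holds most of the strong colours, red for S100b, Vim and Timp1 and blue for Slc1a2, Glul and Serpina3n, while Lcn2 changes from library to library in both genotypes.

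**Figure D2:**
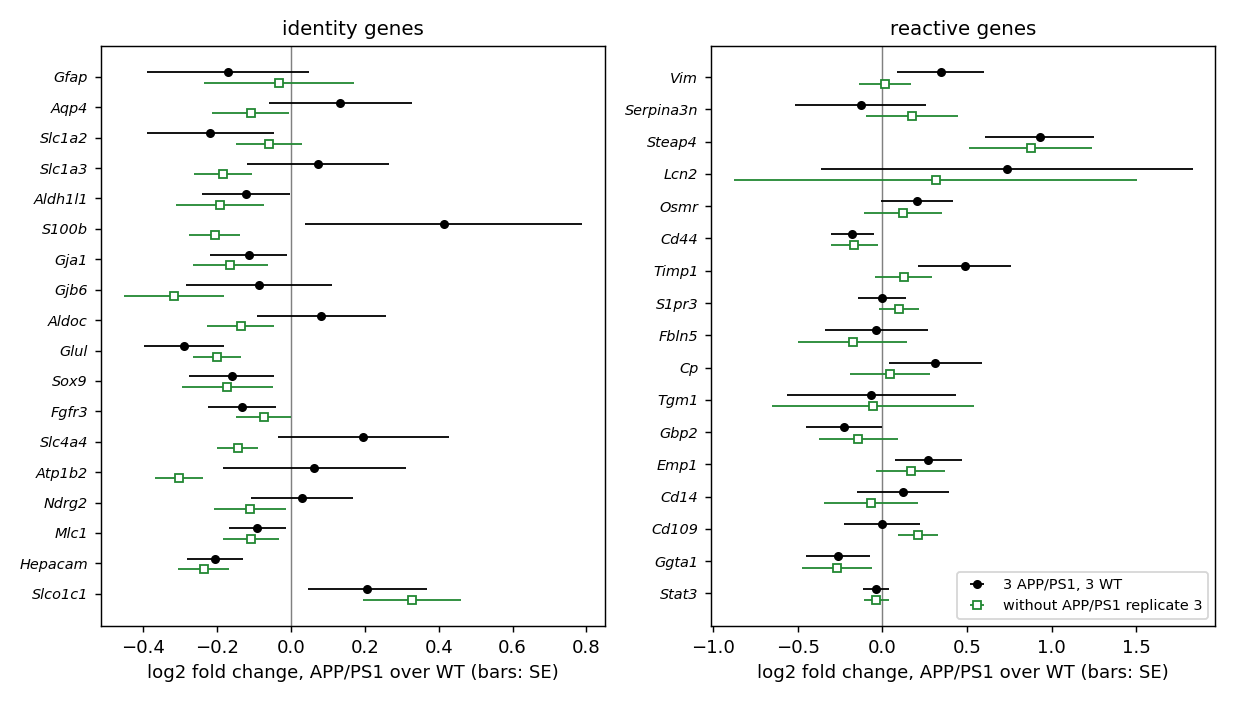
Log2 fold change of APP/PS1 over WT (horizontal axis) for each gene (vertical axis), with SE bars, from 3 against 3 libraries (filled circles) and without APP/PS1 replicate 3 (open squares). Without that library 17 of 18 identity genes lie below 0, and Steap4 remains the highest of the reactive genes.

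Intermediate filaments, the classical measure of reactive astrocytes, did not differ between the genotypes beyond the spread of the libraries. Gfap (chromosome 11, 102887336 to 102897200, mm10), which encodes the filament protein that defines astrocytes, was at 414, 339 and 282 CPM in WT and at 400.4, 276 and 244 CPM in APP/PS1. The highest and the lowest WT library differed about as much as those of APP/PS1, and the groups overlapped. Gfap averaged 307 ± 82.7 CPM over the APP/PS1 libraries and 345 ± 66.6 CPM over the WT libraries (SD, n = 3), a difference smaller than either SD. APP/PS1 over WT, its log2 fold change was -0.17 (SE 0.22, adjusted p 0.893), with a 95% interval of -0.70 to 0.35, so a rise by 1 log2 unit lies outside it. It was -0.033 (SE 0.20) without APP/PS1 replicate 3, and with 1 library left out it ran from -0.41 without APP/PS1 replicate 1 to -0.013 without WT replicate 1. Vim (chromosome 2, 13574311 to 13582826), encoding vimentin, which astrocytes share with endothelial, ependymal and other cells, was at 33.2, 39.5 and 32.9 CPM in WT and at 30.1, 41.3 and 62.8 CPM in APP/PS1. APP/PS1 replicate 3 lay clearly above WT and the other two did not. Its log2 fold change was 0.34 (SE 0.26, adjusted p 0.887), and without that library it was 0.015 (SE 0.15).

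Transcription factors of the lineage and of reactivity overlapped between genotypes. Sox9, a nuclear factor that keeps astrocyte identity, was at 60.4, 54.0 and 55.1 CPM in WT and at 43.7, 56.9 and 51.1 CPM in APP/PS1, with overlap and a log2 fold change of -0.16 (SE 0.11), or -0.17 (SE 0.12) without replicate 3. Stat3 (chromosome 11, 100886806 to 100939594), the factor through which cytokines induce the reactive state, was at 55.1, 51.8 and 48.9 CPM in WT and at 50.1, 51.5 and 49.98 CPM in APP/PS1, a 1.13-fold range over all 6 libraries and the narrowest of the 35 genes. From the 6 libraries its log2 fold change was -0.039 (SE 0.076, adjusted p 0.921), with a 95% interval of -0.22 to 0.14, or -0.035 (SE 0.076) without replicate 3.

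Among the genes of glutamate handling, Glul separated the genotypes and the transporters did not. Slc1a2 (chromosome 2, 102658239 to 102790784), which encodes GLT-1, the main glutamate transporter of the forebrain, was at 6023, 6315 and 5658 CPM in WT and at 5356, 6188 and 3925 CPM in APP/PS1. APP/PS1 replicate 3 was lowest by a wide margin, replicate 1 also lay below all WT libraries, and replicate 2 lay within the WT range. The fitted log2 fold change was -0.22 (SE 0.17, adjusted p 0.887), or -0.060 (SE 0.090) without replicate 3. Slc1a3 (chromosome 15, 8634124 to 8710807), encoding GLAST, the transporter that dominates in Bergmann glia, was at 632, 594 and 582 CPM in WT and at 567, 496 and 838 CPM in APP/PS1. Here APP/PS1 replicate 3 was the highest library and replicates 1 and 2 lay below all WT libraries. APP/PS1 over WT, its log2 fold change was 0.073 (SE 0.19, adjusted p 0.941), and -0.18 (SE 0.079) without replicate 3, a change of sign. Glul (chromosome 1, 153899929 to 153909723), encoding glutamine synthetase, which converts the glutamate that was taken up, was at 1968, 1909 and 1949 CPM in WT and at 1768, 1620.4 and 1377 CPM in APP/PS1. All APP/PS1 libraries lay below all WT libraries, and the WT libraries were close together, with a coefficient of variation of 1.54%. Glul averaged 1589 ± 198 CPM over the APP/PS1 libraries and 1942 ± 29.9 CPM over the WT libraries (SD, n = 3). Its log2 fold change was -0.29 (SE 0.11, adjusted p 0.887), with an unadjusted p of 0.0333, and without replicate 3 the log2 fold change was -0.20 (SE 0.065).

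**Figure D3:**
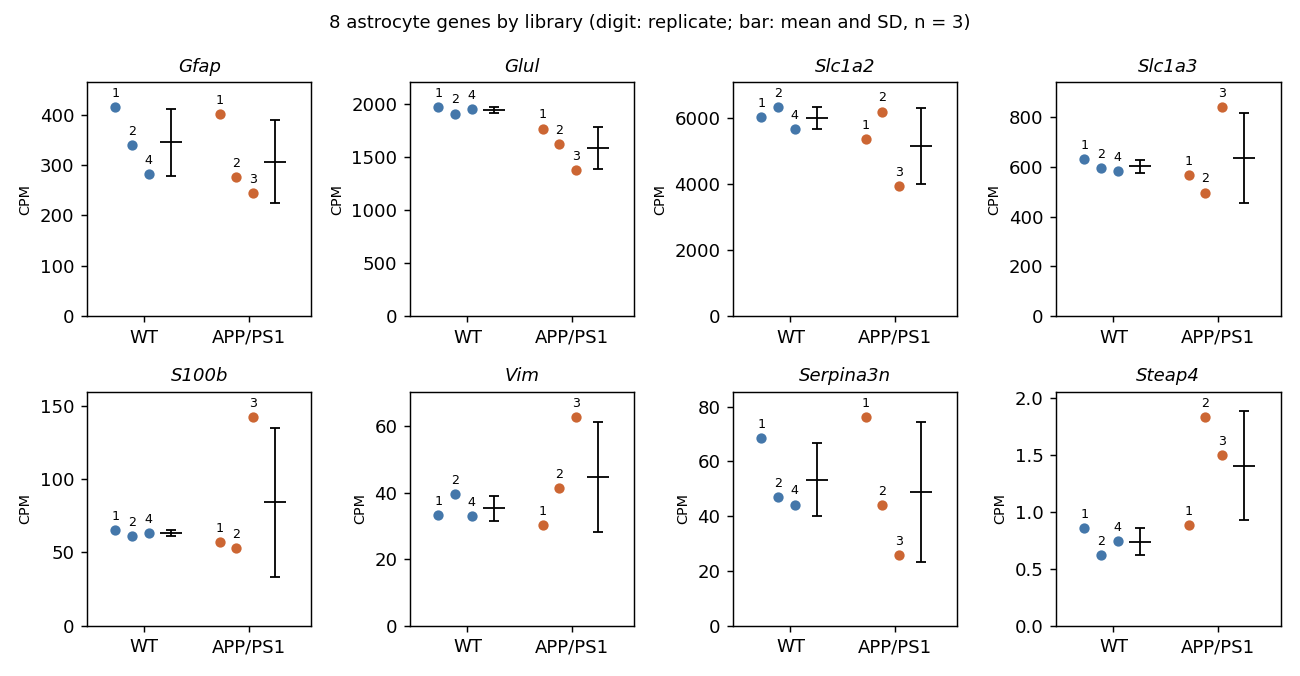
CPM (vertical axes, from 0) of Gfap, Glul, Slc1a2, Slc1a3, S100b, Vim, Serpina3n and Steap4 in each library of the 2 genotypes (horizontal axes), with the replicate number above each point and the mean and SD of 3 libraries beside the points. Glul is lower and Steap4 higher in all APP/PS1 libraries, while replicate 3 lies apart from replicates 1 and 2 for Slc1a3 and S100b.

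The water channel and the ion transporters of the astrocyte endfoot were highest in APP/PS1 replicate 3. Aqp4, the water channel of the endfeet, was at 168, 135 and 141 CPM in WT and at 142, 133 and 212 CPM in APP/PS1. Replicate 3 was above the rest, and the other 2 APP/PS1 libraries lay within or just below the WT range. From the 6 libraries its log2 fold change was 0.13 (SE 0.19, adjusted p 0.897), or -0.11 (SE 0.10) without replicate 3. Slc4a4 (chromosome 5, 88793858 to 89239656), a sodium bicarbonate cotransporter, was at 361, 379 and 369 CPM in WT and at 340.3, 330.5 and 599 CPM in APP/PS1. It shows the same split, with replicates 1 and 2 below all WT libraries, and its log2 fold change was 0.20 (SE 0.23, adjusted p 0.887), or -0.14 (SE 0.056) without replicate 3. Atp1b2, a sodium pump subunit, was at 681, 651 and 622 CPM in WT and at 543, 516 and 982 CPM in APP/PS1, again highest in replicate 3 and below all WT libraries in replicates 1 and 2. The log2 fold change was 0.063 (SE 0.25), and without replicate 3 -0.30 (SE 0.065), with an unadjusted p of 0.00285, the smallest of the 35 genes in those 5 libraries.

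The junction proteins of the endfoot, Hepacam and Mlc1, were not highest in that library. Hepacam (chromosome 9, 37367356 to 37386572), the adhesion protein GlialCAM, was at 107, 102 and 98.5 CPM in WT and at 84.1, 90.04 and 92.0 CPM in APP/PS1. All APP/PS1 libraries were below all WT libraries, and the log2 fold change was -0.21 (SE 0.076, adjusted p 0.887), with an unadjusted p of 0.0314, or -0.24 (SE 0.069) without replicate 3. Mlc1, the membrane protein that Hepacam anchors at astrocyte junctions, was at 71.6, 73.6 and 65.6 CPM in WT and at 66.4, 64.3 and 67.2 CPM in APP/PS1, a 1.14-fold range with overlapping groups, and a log2 fold change of -0.091 (SE 0.076), or -0.11 (SE 0.075) without replicate 3.

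Gap junction genes overlapped between genotypes. Gja1 (chromosome 10, 56377300 to 56390419), encoding connexin 43, was at 197, 222 and 224 CPM in WT and at 174, 209 and 210.0 CPM in APP/PS1, and its log2 fold change was -0.11 (SE 0.10, adjusted p 0.887), with a 95% interval of -0.36 to 0.13, or -0.16 (SE 0.10) without replicate 3. Gjb6, encoding connexin 30, was at 29.9, 40.8 and 37.3 CPM in WT and at 29.0, 28.9 and 43.7 CPM in APP/PS1. WT replicate 1 lay with APP/PS1 replicates 1 and 2 at the low end, and the log2 fold change was -0.087 (SE 0.20), or -0.32 (SE 0.14) without replicate 3.

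The remaining identity genes are metabolic and signalling genes. S100b (chromosome 10, 76253836 to 76261319), a calcium-binding protein, was at 65.0, 61.3 and 63.4 CPM in WT and at 56.8, 53.1 and 143 CPM in APP/PS1. The WT libraries were within a few percent of each other, APP/PS1 replicates 1 and 2 lay below them, and replicate 3 lay far above. The fitted log2 fold change was 0.41 (SE 0.38, adjusted p 0.887), the highest among identity genes, and it was -0.21 (SE 0.069) without replicate 3. Aldoc, the brain isoform of aldolase, was at 597, 669 and 599 CPM in WT and at 611, 524 and 838 CPM in APP/PS1, and Aldh1l1, a folate enzyme that labels astrocytes broadly, at 36.02, 44.2 and 45.7 CPM in WT and at 38.4, 35.3 and 42.0 CPM in APP/PS1. Both overlapped between genotypes, with log2 fold changes of 0.081 (SE 0.17) and -0.12 (SE 0.12), or -0.14 (SE 0.091) and -0.19 (SE 0.12) without replicate 3. Ndrg2, a cytosolic protein abundant in astrocytes, was at 546, 584 and 607 CPM in WT and at 591, 484 and 698 CPM in APP/PS1. Fgfr3, a growth factor receptor of the lineage, was at 84.4, 87.3 and 86.6 CPM in WT and at 87.2, 76.9 and 71.4 CPM in APP/PS1. Neither separated the genotypes, and their log2 fold changes were 0.030 (SE 0.14) and -0.13 (SE 0.092), or -0.11 (SE 0.10) and -0.074 (SE 0.075) without replicate 3. Slco1c1, which carries thyroxine into astrocytes and brain endothelium, was at 52.1, 46.4 and 54.1 CPM in WT and at 55.0, 73.0 and 48.0 CPM in APP/PS1, high in APP/PS1 replicate 2 alone, and its log2 fold change was 0.21 (SE 0.16, adjusted p 0.887), or 0.33 (SE 0.13) without replicate 3. The endothelial and mural list, whose cells share this gene, had a median level at -0.023 log2 units from the median library in APP/PS1 replicate 2, and the choroid plexus list stood at 1.04, the highest of the 6. The part of these cells in the Slco1c1 values was not tested.

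APP/PS1 replicate 3 held the highest value of 8 of the 18 identity genes and the lowest value of 4, where among all genes tested it was highest for 31.4% and lowest for 30.3%. The 8 high genes were S100b at 2.38 times the mean of the other 5 libraries, Slc4a4 at 1.68, Atp1b2 at 1.63, Aqp4 at 1.47, Slc1a3 at 1.46, Aldoc at 1.4, Gjb6 at 1.32 and Ndrg2 at 1.24. The 4 low genes were Slc1a2 at 0.664 times, Gfap at 0.713, Glul at 0.747 and Fgfr3 at 0.845. The genes of GLAST and of the forebrain transporter GLT-1 lay on opposite sides in this library, whose Bergmann glia marker Gdf10 was several-fold above the rest. The part of Bergmann glia in these values was not tested. APP/PS1 replicate 2 held the lowest value of 10 of the 18, among them Slc1a3, S100b, Aldoc and Ndrg2, against 13.5% of all genes tested, and the highest value of 1, Slco1c1, against 15.8%. Of the WT libraries, replicate 2 was lowest for 1 identity gene, again Slco1c1, and the other two for 0.

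**Figure D4:**
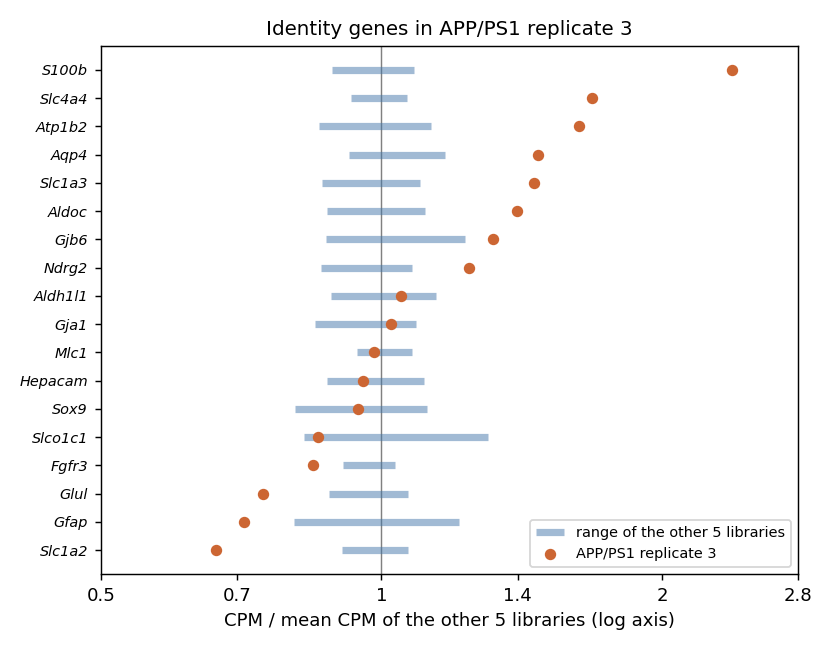
CPM of each identity gene (vertical axis) in APP/PS1 replicate 3 (points) divided by the mean of the other 5 libraries (horizontal axis, log scale), with bars for the range of those 5 on the same scale. S100b, at 2.38 times, and 7 other genes lie right of their bars, and Slc1a2, Gfap, Glul and Fgfr3 lie left of theirs.

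No secreted product of reactive astrocytes passed the test, and Serpina3n and Lcn2 varied widely within each genotype. Serpina3n (chromosome 12, 104406646 to 104414334), a protease inhibitor and one of the most sensitive transcripts of the reactive state, was at 68.6, 47.0 and 44.2 CPM in WT and at 76.3, 44.2 and 25.7 CPM in APP/PS1. The highest library, APP/PS1 replicate 1, and the lowest, APP/PS1 replicate 3, were both transgenic, and WT lay between. APP/PS1 over WT, its log2 fold change was -0.13 (SE 0.39, adjusted p 0.946), with a 95% interval of -1.05 to 0.79, and without replicate 3 it was 0.17 (SE 0.27). The 10 other Serpina3 genes of the table, close copies with which reads may be shared, together held 3.23% to 7.55% of the counts of the family in a library. Lcn2 (chromosome 2, 32384637 to 32387739), encoding the iron-binding lipocalin 2, was at 0.263, 2.48 and 1.52 CPM in WT and at 3.39, 0.170 and 3.55 CPM in APP/PS1. Its 20.8-fold range was the widest of the 35, with high and low libraries in both genotypes, and its log2 fold change was 0.73 (SE 1.10, adjusted p 0.899). It was 0.31 (SE 1.19) without APP/PS1 replicate 3, and with 1 library left out it ran from 0.25 without WT replicate 1 to 1.41 without WT replicate 2. Neutrophils and other blood cells also make lipocalin 2. The 11 neutrophil and blood genes tested were at 0.21, 0.016 and 0.093 log2 units from the median library in WT and at -0.17, -0.73 and 0.96 in APP/PS1. The highest and the lowest library for this list were the highest and the lowest for Lcn2. Other libraries did not keep that order. APP/PS1 replicate 1 had 3.39 CPM of Lcn2 with the list at -0.17, and WT replicate 1 had 0.263 CPM with the list at 0.21. The part of these blood cells in the Lcn2 values was not tested.

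Timp1 (chromosome X, 20870166 to 20874737), an inhibitor of matrix metalloproteinases, was at 2.01, 2.07 and 2.12 CPM in WT and at 2.27, 2.25 and 4.16 CPM in APP/PS1. All APP/PS1 libraries lay above all WT libraries, by a small margin in replicates 1 and 2 and by a wide one in replicate 3. Its log2 fold change was 0.49 (SE 0.28, adjusted p 0.887), or 0.13 (SE 0.17) without replicate 3. Cp, the ferroxidase ceruloplasmin, was at 20.3, 34.5 and 28.1 CPM in WT and at 24.2, 33.1 and 45.8 CPM in APP/PS1, and Fbln5, an elastic fibre protein, at 3.87, 6.52 and 3.98 CPM in WT and at 3.11, 5.39 and 5.52 CPM in APP/PS1. Their log2 fold changes were 0.31 (SE 0.28) and -0.035 (SE 0.30), or 0.046 (SE 0.24) and -0.18 (SE 0.32) without replicate 3. For both, WT replicate 1 and APP/PS1 replicate 1 were among the 3 lowest libraries. The list of 14 meningeal and perivascular fibroblast genes, cells that also make matrix proteins, was lowest in the same libraries, at -0.68, 0.26 and -0.017 log2 units from the median library in WT and at -1.001, 0.093 and 0.20 in APP/PS1. Its part in the Cp and Fbln5 values was not tested.

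Receptors and surface proteins of the reactive state overlapped between the genotypes. Osmr (chromosome 15, 6813568 to 6874968), the oncostatin M receptor subunit upstream of STAT3, was at 10.2, 6.76 and 10.4 CPM in WT and at 11.6, 8.30 and 11.6 CPM in APP/PS1, and its log2 fold change was 0.21 (SE 0.21, adjusted p 0.887), or 0.12 (SE 0.23) without replicate 3. Cd44 (chromosome 2, 102811141 to 102901669), the hyaluronan receptor, was at 10.1, 9.46 and 11.7 CPM in WT and at 8.47, 10.1 and 8.97 CPM in APP/PS1, and its log2 fold change was -0.18 (SE 0.13, adjusted p 0.887), with a 95% interval of -0.48 to 0.13, or -0.17 (SE 0.14) without replicate 3. Both overlapped between the genotypes. S1pr3, a sphingosine phosphate receptor, was at 9.10, 9.05 and 8.01 CPM in WT and at 8.74, 9.97 and 7.41 CPM in APP/PS1, and Cd109, a membrane protein that binds transforming growth factor beta, at 10.001, 8.73 and 8.29 CPM in WT and at 10.8, 10.1 and 6.08 CPM in APP/PS1. Their log2 fold changes were -0.0022 (SE 0.14) and -0.0033 (SE 0.23), the closest to 0 of the 35, and 0.10 (SE 0.12) and 0.21 (SE 0.12) without replicate 3. Emp1, a membrane protein of the injury response, was at 2.72, 3.38 and 2.43 CPM in WT and at 2.90, 3.50 and 3.89 CPM in APP/PS1, and Cd14, a lipopolysaccharide co-receptor that microglia also express, at 1.30, 1.14 and 0.904 CPM in WT and at 1.22, 0.918 and 1.51 CPM in APP/PS1. Both were highest in APP/PS1 replicate 3 and overlapped, with log2 fold changes of 0.27 (SE 0.20) and 0.12 (SE 0.27), or 0.17 (SE 0.20) and -0.068 (SE 0.28) without that library. The 18 microglia genes were lowest in that library, at -0.59 log2 units from the median library. Their part in the Cd14 values was not tested.

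Among the enzymes and GTPases, Steap4 had the highest fold change of the 35 genes in the 6 libraries, while without WT replicate 2 or APP/PS1 replicate 2 that of Lcn2 was higher (1.41 against 0.82, and 1.28 against 0.69). Steap4 (chromosome 5, 7960472 to 7982213), a metalloreductase counted among the pan-reactive astrocyte genes, was at 0.855, 0.623 and 0.741 CPM in WT and at 0.886, 1.84 and 1.5 CPM in APP/PS1. APP/PS1 replicate 1 lay just above the highest WT library, and replicates 2 and 3 lay well above every WT library. It averaged 1.41 ± 0.482 CPM over the APP/PS1 libraries and 0.740 ± 0.116 CPM over the WT libraries (SD, n = 3). From the 6 libraries its log2 fold change was 0.93 (SE 0.32, adjusted p 0.887), with an unadjusted p of 0.0249 and a 95% interval of 0.16 to 1.70, and without replicate 3 it was 0.88 (SE 0.36). The level is low, 79 to 248 estimated counts in a library. The 15 choroid plexus genes rank APP/PS1 replicates 2, 3 and 1 in the same order, at -0.17, -0.035 and -0.21 log2 units from the median library in WT and at -0.0092, 1.04 and 0.38 in APP/PS1, all 15 with positive log2 fold changes. Within WT the orders differed, with replicate 2 lowest for Steap4 and highest for that list. Whether choroid plexus contributes to the Steap4 values was not tested.

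The other members of this class had negative log2 fold changes that did not pass the test. Tgm1, a transglutaminase, was at 0.502, 0.323 and 0.143 CPM in WT and at 0.355, 0.267 and 0.300 CPM in APP/PS1, about as many as 21 to 61 estimated counts, and its log2 fold change was -0.067 (SE 0.50), or -0.054 (SE 0.60) without replicate 3. Gbp2, an interferon-induced GTPase from a family of similar genes among which reads may be split, was at 2.29, 3.18 and 3.57 CPM in WT and at 2.48, 3.00 and 2.25 CPM in APP/PS1, and its log2 fold change was -0.23 (SE 0.22, adjusted p 0.887), or -0.14 (SE 0.23) without replicate 3. Ggta1, a galactosyltransferase, was at 3.68, 3.15 and 3.62 CPM in WT and at 2.36, 3.44 and 2.93 CPM in APP/PS1, and its log2 fold change was -0.26 (SE 0.19, adjusted p 0.887), or -0.27 (SE 0.21) without replicate 3. Groups overlapped for all 3.

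Gfap and Serpina3n varied together over the 6 libraries, those of both genotypes. On log2 CPM Pearson's r was 0.930 (exact permutation p = 0.00833, two-sided, n = 6) and Spearman's rho 0.943 (exact permutation p = 0.0167). Gfap was set against each of the 34 other genes, and adjusted over those 34 relations by the Benjamini-Hochberg method the exact permutation p was 0.283 for r and 0.567 for rho, so the relation does not pass. With 6 libraries the smallest exact permutation p is 0.00278, which for 1 relation alone among 34 would be adjusted to 0.0944, so a single relation could not have passed. Without the 2 libraries farthest from the median of Gfap, WT replicate 1 and APP/PS1 replicate 1, r was 0.796 over 4 libraries, and without APP/PS1 replicate 3 alone it was 0.921 over 5. WT replicate 1 and APP/PS1 replicate 1 were the highest for both genes, and APP/PS1 replicate 3 the lowest. Vim and Cp ran against Gfap, with r = -0.751 (exact permutation p = 0.0472) and r = -0.847 (exact permutation p = 0.0361), both with an adjusted p of 0.472. Their rho values were -0.714 (exact permutation p = 0.136) and -0.829 (exact permutation p = 0.0583), both with an adjusted p of 0.822. Without the 2 farthest libraries r was -0.620 for Vim and -0.480 for Cp, and without APP/PS1 replicate 3 it was -0.571 and -0.739. In those 5 libraries Cd14 had a higher r with Gfap than Serpina3n, 0.981, against 0.159 over all 6. The fibroblast genes were lowest in the 2 libraries in which Gfap and Serpina3n were highest, and their part in these relations was not tested.

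**Figure D5:**
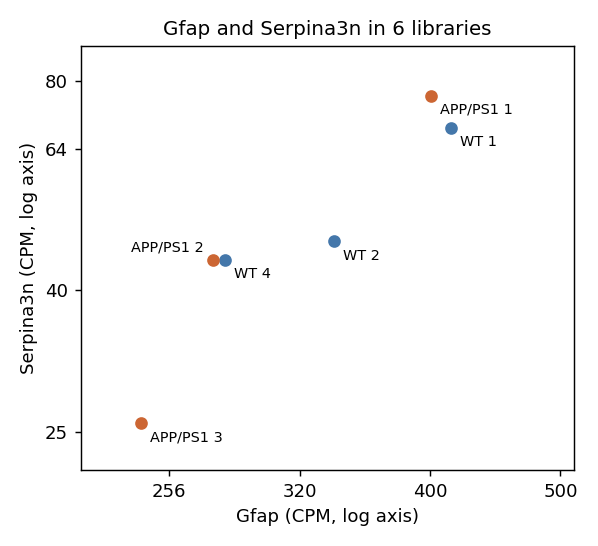
Serpina3n (vertical axis) against Gfap (horizontal axis), both in CPM on log axes, with 1 point per library, WT in blue and APP/PS1 in orange. The points of both genotypes rise together, from APP/PS1 replicate 3 at 244 and 25.7 CPM to WT replicate 1 and APP/PS1 replicate 1 at the upper end.

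Other astrocyte genes were mostly negative too, and leaving out APP/PS1 replicate 3 changed their signs less than those of the identity genes. Of 40 further astrocyte genes, none of them among the 35, 12 had positive log2 fold changes and 28 negative values, median log2 fold change -0.056. Without APP/PS1 replicate 3 the counts were 10 and 30 and the median -0.063. The edgeR test called 0 of these and took 2 of the 40 at an unadjusted p under 0.05, against 3.42% of all genes tested. In all, 5 lay below WT without overlap and 0 above, against 4.76% and 5.63% of all genes tested. Without APP/PS1 replicate 3 the edgeR test again called 0 of the 40. At an unadjusted p under 0.05 it then took 6 lower and 0 higher, against 2.15% lower among all genes tested in that fit. Mertk, a receptor by which astrocytes engulf debris and synapses, was at 70.6, 74.8 and 73.6 CPM in WT and at 61.2, 62.1 and 49.7 CPM in APP/PS1, a log2 fold change of -0.34 (SE 0.10). Plpp3, a lipid phosphatase of astrocytes, was at 239.8, 232 and 243 CPM in WT and at 210.5, 211 and 209 CPM in APP/PS1, a log2 fold change of -0.18 (SE 0.065). Both separated the genotypes and kept a negative sign without replicate 3, at -0.25 (SE 0.064) and -0.18 (SE 0.055). Clu, encoding clusterin, an amyloid-binding chaperone, had -0.23 (SE 0.11) and Gli3, a Hedgehog pathway factor, -0.25 (SE 0.11), both from the 6 libraries. APP/PS1 replicate 3 was the lowest library for Clu, which had -0.13 (SE 0.053) without it.

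Of 34 further reactive genes 31 were tested, 19 of them positive and 12 negative, and the median log2 fold change was 0.034. Without APP/PS1 replicate 3 the counts were 16 and 15 and the median 0.015. The edgeR test called 0 of them, and at an unadjusted p under 0.05, met by 3.42% of all genes tested, it took 1 of the 31. This was Hspb1, the small heat shock protein of reactive astrocytes, at 4.04, 5.16 and 4.43 CPM in WT and at 7.66, 6.09 and 6.70 CPM in APP/PS1, with every APP/PS1 library above every WT library and a log2 fold change of 0.59 (SE 0.16). Psmb8, an immunoproteasome subunit, was at 1.06, 0.954 and 0.972 CPM in WT and at 1.23, 1.29 and 1.13 CPM in APP/PS1, again without overlap, and its log2 fold change was 0.29 (SE 0.20). C3, the complement component used as a marker of harmful reactive astrocytes, was at 4.77, 5.84 and 3.15 CPM in WT and at 4.09, 4.28 and 3.37 CPM in APP/PS1, and C4b, another complement gene of plaque-associated astrocytes, at 52.0, 41.0 and 39.1 CPM in WT and at 46.8, 37.7 and 32.9 CPM in APP/PS1. Neither C3 nor C4b separated the genotypes, with log2 fold changes of -0.23 (SE 0.25) and -0.17 (SE 0.17), and both were chosen after their values were seen, as was Psmb8.

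Of 21 genes of the cytokine pathway that acts through STAT3, 19 were tested, 13 positive and 6 negative, with a median of 0.069. Without APP/PS1 replicate 3, the highest library for 10 of them, 10 were positive and 9 negative, with a median of 0.0041. The edgeR test called 0 of these, and none had an unadjusted p under 0.05, against 3.42% of all genes tested. Socs3, the feedback inhibitor that STAT3 induces, was at 1.61, 2.03 and 2.14 CPM in WT and at 1.27, 1.57 and 1.54 CPM in APP/PS1, lower in every APP/PS1 library than in every WT library, with a log2 fold change of -0.40 (SE 0.21). Il6 and Osm, both ligands of the pathway, did not pass the filter, with at most 15 and 12 estimated counts in a library.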

How the data were processed

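Total RNA of hippocampus from 3 mice of each genotype was sequenced from stranded libraries on an Illumina HiSeq instrument, per the labels' protocols. The authors deposited whole-number estimated counts per gene symbol. HISAT2, StringTie, DESeq and the build mm10 are named, with no roles or versions, per the submitters' processing notes. The sources used here do not give the counting step, annotation or strand setting. Low values favoured multiples of 4, so 1 fragment may stand for about 4 estimated counts. The depth in fragments is therefore uncertain, and the spread between libraries set the precision. The biological coefficient of variation was 26.5%, or 19.7% without APP/PS1 replicate 3.

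APP/PS1 was compared with WT by edgeR 4.0.16 (R 4.3.3), quasi-likelihood test, with TMM scaling, the default expression filter and no covariate. Benjamini-Hochberg adjustment ran over all genes tested, with a threshold of 0.05, and p-values measure the spread between these animals' libraries. SE was derived from the fold change and the F statistic, and intervals from SE and the test's degrees of freedom. The procedure was tested on simulated data. Members and lists were chosen with earlier results of these data known, so lists are described by counts and medians without a test. All 35 members may be named, and from other lists at most 4 genes each, by smallest unadjusted p, unless said otherwise. The level of a list in a library is the median over its genes of log2 CPM (plus 0.01) less that gene's median over 6 libraries. DESeq2 1.42.0, limma-voom (limma 3.58.1), other scalings and filters, a replicate block and leaving out each library were tried. RefSeq coordinates and sequences are of GRCm38.p6, the build mm10. Small RNA counts were not used.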

Additional observations from a re-analysis of the deposited data

How the results depend on the processing

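Under 16 other settings 0 of the 35 astrocyte genes passed in any. Of 560 refitted fold changes 503 kept their sign, and 17 of the 35 genes kept it throughout, Glul, Hepacam, Steap4 and Gfap among them. The count over all genes was 1 with edgeR, 26 with DESeq2, 5 with limma-voom and quality weights and 2 with the replicate block, and from 0 (without WT replicate 1 or 2) to 6 (without APP/PS1 replicate 1) with 1 library left out. The reactive median of -0.0022 was 0.12 with limma-voom and 0.10 with quality weights, and -0.060 to 0.14 with 1 library left out, highest without WT replicate 1. The identity median was -0.15 without APP/PS1 replicate 3 to -0.0031 without APP/PS1 replicate 1. The cause of these shifts was not tested. Log2 fold changes that changed sign were Ndrg2 -0.0067 with upper-quartile scaling, S1pr3 0.0033 with library totals, S1pr3 0.0019 with the stricter filter, S1pr3 6.3e-05 with counts divided by 4, and Atp1b2 -0.0022 and Tgm1 0.13 with limma-voom. With quality weights they were Aqp4 -0.037, Slc1a3 -0.14, S100b -0.090, Aldoc -0.12, Slc4a4 -0.078, Atp1b2 -0.23, Ndrg2 -0.12, Lcn2 -1.01, S1pr3 0.10, Tgm1 0.12, Cd14 -0.050 and Cd109 0.15. With the replicate block, where only numbers 1 and 2 occur in both genotypes, they were Aqp4 -0.13, Slc1a3 -0.21, S100b -0.20, Aldoc -0.16, Slc4a4 -0.14, Atp1b2 -0.33, Ndrg2 -0.078, Vim -0.039, Serpina3n 0.032, Lcn2 -0.0043, S1pr3 0.041, Gbp2 0.014, Cd14 -0.21 and Cd109 0.16. Over gene deviations from the genotype means, number 1 libraries correlated at 0.126 and number 2 libraries at -0.120, so the numbers were not taken as pairs. With 1 library left out, log2 fold changes ran from -0.14 to 0.22 for Aldoc, -0.11 to 0.26 for Aqp4, -0.30 to 0.23 for Atp1b2, -0.16 to 0.21 for Cd109, -0.068 to 0.29 for Cd14, -0.18 to 0.25 for Fbln5, -0.32 to 0.019 for Gjb6, -0.11 to 0.15 for Ndrg2, -0.21 to 0.66 for S100b, -0.11 to 0.10 for S1pr3, -0.61 to 0.17 for Serpina3n, -0.18 to 0.22 for Slc1a3, -0.14 to 0.35 for Slc4a4, -0.080 to 0.010 for Stat3 and -0.43 to 0.41 for Tgm1. Depth in fragments is unknown, and the low counts of Steap4 and Tgm1, at most 2 CPM in any library, limit their precision.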

Other observations

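Several astrocyte genes outside the 35 had values in APP/PS1 replicate 3 far from the other libraries. Itih3, a hyaluronan-binding inhibitor chain, was at 22.2, 26.3 and 32.3 CPM in WT and at 32.9, 22.7 and 69.4 CPM in APP/PS1, Megf10, an engulfment receptor, at 44.1, 43.5 and 40.3 CPM in WT and at 42.8, 41.5 and 84.3 CPM in APP/PS1, and Agt, angiotensinogen, at 28.8, 24.2 and 22.3 CPM in WT and at 21.3, 17.52 and 44.6 CPM in APP/PS1. Slc6a11, a GABA transporter of astrocytes, was at 152, 153 and 137 CPM in WT and at 132, 125 and 72.0 CPM in APP/PS1, and Gpc5, a glypican, at 35.01, 35.4 and 34.6 CPM in WT and at 34.4, 36.3 and 19.6 CPM in APP/PS1. The former 3 genes were highest and the latter 2 lowest in that library, and all 5 were chosen after their values were seen. Of the 40 genes of that list it held the highest value of 13 and the lowest of 15, shares near the 31.4% and 30.3% of all genes tested.

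Among further reactive genes, B3gnt5, a glycosyltransferase, was at 1.30, 0.812 and 0.910 CPM in WT and at 0.802, 0.718 and 17.48 CPM in APP/PS1, and H2-D1, a class I histocompatibility gene, at 13.1, 10.1 and 18.1 CPM in WT and at 14.6, 7.98 and 46.6 CPM in APP/PS1. H2-D1 was chosen after its values were seen. Replicate 3 was the highest library for both, and without it their log2 fold changes were -0.41 (SE 0.30) and -0.29 (SE 0.32).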
